A study of Homo sapiens with 4 samples.

Results

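The genes of epithelial identity are described here in MDA-MB-231 cells after depletion of the receptor tyrosine kinase AXL. The set holds 51 genes of the 63677 rows in the deposited table. They are keratins, components of tight junctions, adherens junctions and desmosomes, epithelial transcription factors and splicing regulators, and epithelial surface proteins. ELF3 and LCN2 were put in the set because they fell in this comparison, so their values are a description with no test. Where a symbol had several rows, which was so for 5 of the 51, the row with the highest mean was taken. The other members were listed with earlier results of these data known. The share of them that passed a test is given beside that of all genes tested.

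The established line MDA-MB-231 comes from a human triple-negative breast cancer, a class with little or no estrogen receptor, progesterone receptor and HER2. Its RNA was sequenced after transfection with a control siRNA (siCt, 2 libraries) or with a commercial pool of siRNAs against AXL (siAXL, labelled siAxl, 2 libraries), given with a lipid reagent. The methods name a luciferase-bearing derivative of the line for culture, while the labels name MDA-MB-231 itself. Neither source states that the libraries of a group came from separate cultures, so the p-values below measure only the spread between these libraries, which may be technical.

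Epithelial cells are held together by tight junctions, adherens junctions and desmosomes, and keratins are the intermediate filaments that desmosomes anchor. Type I and type II keratins pair as partners in 1 filament, and their genes lie in 2 clusters, with the type II genes on chromosome 12 and most type I genes on chromosome 17. ELF3 and EHF are ETS-family factors, the grainyhead-like (GRHL) and OVOL factors maintain epithelial gene expression, and the ESRP proteins set epithelial splice forms. MDA-MB-231 is known as a mesenchymal-like line, in which several of these genes are low.

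The libraries held 39574387 to 44585773 reads assigned to genes, recovered from the deposited normalized counts, and AXL itself fell. It had 29189 and 30617 normalized counts in siCt against 8658 and 7141 in siAXL, a log2 fold change of -1.93 (SE 0.0918, limma adjusted p = 0.000585). The mesenchymal markers VIM and CD44 stood at the 99.8th and 97.4th percentile of tested genes per kb of exon length, and ZEB1 at the 67.0th. ESR1 and PGR had 1 to 3 and 0 to 2 reads per library. ERBB2, the gene of HER2, and EPCAM were not low in this RNA, at the 62.2nd and 57.7th percentile. Of markers of other cell types, PECAM1 (endothelium) had 0 reads in each library, PTPRC (leukocytes) 8 to 17, and CD14 (monocytes) 68 to 115. The share of mitochondrial reads was 3.70% and 3.78% in siCt 1 and siAXL 1 and 2.11% and 2.28% in siCt 2 and siAXL 2, so it went with the number of the library and not with the siRNA.

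Of all genes tested by limma on log2(normalized count + 1), 18.7% passed a Benjamini-Hochberg adjusted p of 0.05, 10.8% as higher and 7.91% as lower in siAXL. In 61.2% of them the siAXL and siCt values did not overlap. Of the 51 members, 38 had enough reads to be tested. Besides ELF3 and LCN2 these were 36, of which 8 were called (22.2%), and in 25 (69.4%) the groups did not overlap. The share called was near that of all tested genes. The 3 called higher were DSC2, F11R and CLDN3, which belong to junctions, and the 5 called lower were the keratins KRT7, KRT8, KRT80, KRT81 and KRT86. The median log2 fold change of the 36 was 0.06, with 22 above 0, beside -0.002 over all tested genes. With 2 libraries against 2, an exact permutation test of 1 gene cannot go below a two-sided p of 0.333, so the adjusted p-values depend on limma's pooling of the spread over genes. With 1 library left out, the spread of that group is taken from the other group and from this pooling. RNA from a culture cannot tell fewer cells that express a gene from less of its RNA per cell.

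**Figure D1:**
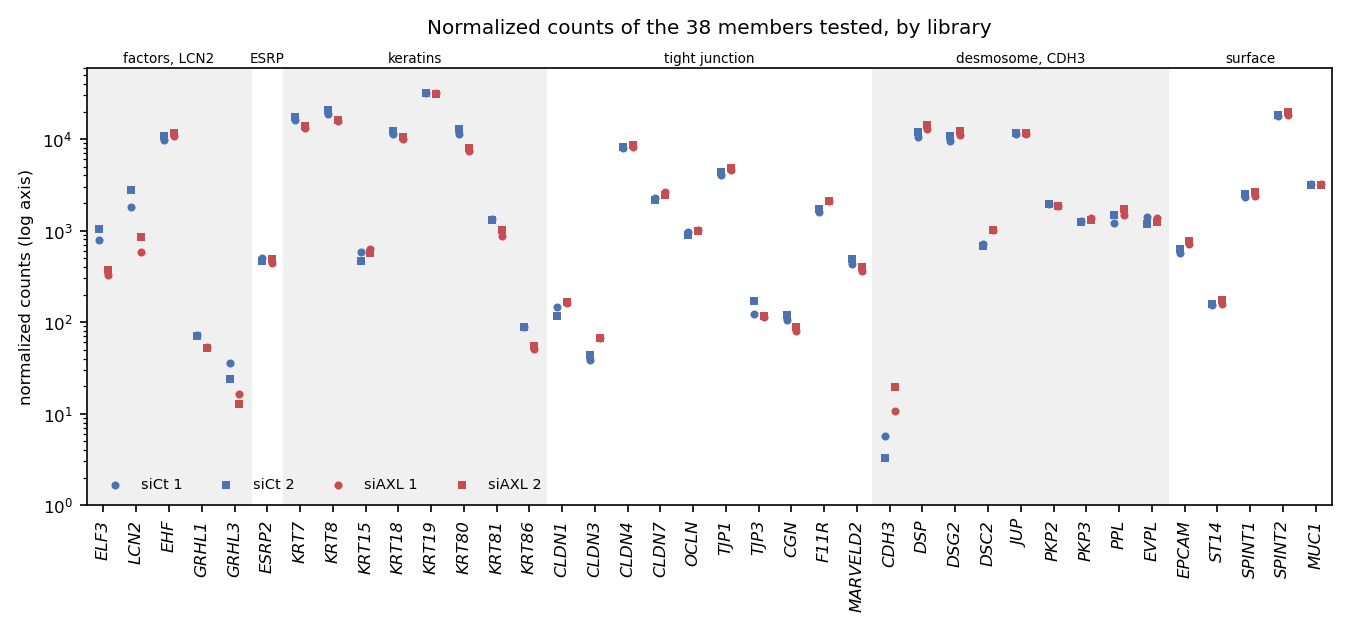
Normalized counts (log axis) of the 38 members tested, in order of role. Each point is 1 library, blue for siCt and red for siAXL, circles for replicate 1 and squares for replicate 2. Both red points lie below both blue points for 14 members and above them for 13. Among the 14 are ELF3, LCN2 and the chromosome 12 keratins KRT7, KRT8, KRT80, KRT81 and KRT86. Of all tested genes, 61.2% had groups apart in either direction.

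**Figure D2:**
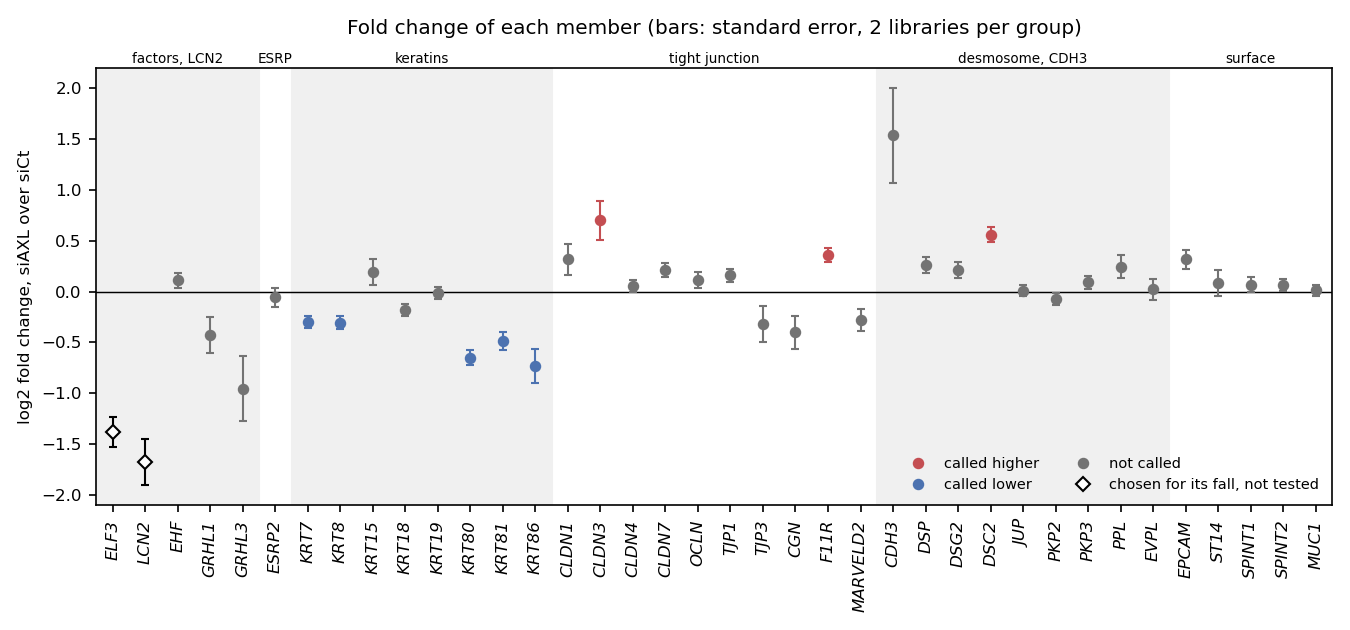
Log2 fold change of each tested member, siAXL over siCt, with bars of 1 standard error from limma and 2 libraries per group. Red points passed the test as higher and blue points as lower, grey points did not pass, and the open diamonds are ELF3 and LCN2, which were chosen for their fall.

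The levels of the members spanned a wide range in this line. Per kb of exon length, KRT19 led with a siCt mean of 13617 normalized counts per kb, followed by KRT7 at 4109, KRT18 at 3654, SPINT2 at 3512, KRT8 at 2870 and KRT80 at 2790. Of the 36 tested members, 21 stood above the median of tested genes per kb. The lowest tested ones were GRHL1 at 8.95, GRHL3 at 7.53 and CDH3 at 0.722 normalized counts per kb. The remaining 13 members had at most 11 reads over the 4 libraries together and were not tested. Among these were the basal keratins KRT5, KRT14, KRT16 and KRT17, with 0 to 4 reads in a library, and the factors ELF5, GRHL2 and OVOL2, with 0 to 5. OVOL1 had 0 reads in each library, which allows up to 3 reads by counting error alone. ESRP1 (1 to 4 reads), MARVELD3 (0 to 5), DSC3 (1 to 4), PKP1 (1 to 3) and RAB25 (0 to 10) made up the rest. RAB25, a small GTPase of epithelial membrane traffic, had 10 reads in siCt 1, 1 in siCt 2 and 0 in both siAXL libraries.

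ELF3, the ETS factor of epithelial differentiation, had 781 and 1049 normalized counts in siCt and 323 and 372 in siAXL. The means were 915 ± 189 and 348 ± 34.6 (SD, n = 2), and siAXL held 38% of the siCt level, a log2 fold change of -1.38. LCN2, a secreted iron-siderophore carrier that inflammatory signals induce in epithelia, had 1810 and 2795 normalized counts in siCt and 585 and 841 in siAXL. Its means were 2303 ± 697 and 713 ± 181 (SD, n = 2), which left 31.0% of the siCt level, a log2 fold change of -1.68. For both genes each siAXL library lay below each siCt library, and replicate 2 was the higher library of either group. With each library left out in turn, the log2 fold change lay between -1.59 and -1.17 for ELF3 and between -1.99 and -1.37 for LCN2. ELF3 shares exonic bases with ELF3-AS1 on the other strand, which had a mean of 29.5 reads. Since ELF3 and LCN2 were selected on these values, neither fall is evidence about the other members.

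The 300 bases around the start sites of ELF3 and LCN2 are shown because these members had the largest falls of the set, from RefSeq on GRCh38.p14, from 250 bases before to 50 bases after the start. Capitals mark matches to 4 of the motifs searched on both strands, a loose NF-kB core (GGG, any 5 bases, then CC), TGANTCA (AP-1), CACCTG (an E-box bound by the ZEB and SNAI repressors) and TATAAA. On the minus strand CACCTG reads as CAGGTG in the lines shown.
ELF3 promoter (chr1:202010337-202010636, plus strand): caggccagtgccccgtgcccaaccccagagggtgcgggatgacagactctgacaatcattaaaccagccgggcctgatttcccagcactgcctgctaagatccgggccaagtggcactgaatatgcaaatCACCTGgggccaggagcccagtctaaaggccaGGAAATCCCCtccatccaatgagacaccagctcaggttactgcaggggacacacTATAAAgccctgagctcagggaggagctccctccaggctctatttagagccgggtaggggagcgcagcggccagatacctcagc
LCN2 promoter (chr9:128149203-128149502, plus strand): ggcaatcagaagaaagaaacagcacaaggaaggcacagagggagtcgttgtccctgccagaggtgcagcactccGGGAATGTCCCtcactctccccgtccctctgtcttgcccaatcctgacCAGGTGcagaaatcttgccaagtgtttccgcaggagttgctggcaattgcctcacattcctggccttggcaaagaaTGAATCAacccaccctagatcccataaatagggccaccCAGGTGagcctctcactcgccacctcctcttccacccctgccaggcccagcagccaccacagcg

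Positions are counted from the start and are those of the leftmost base of a match in the lines shown, for either strand. In the ELF3 promoter the NF-kB core matched on the minus strand as GGGGATTTCC at -88, CACCTG stood at -120 and TATAAA at -34. In the LCN2 promoter it matched on both strands, at -176 and -175 in overlapping positions, TGANTCA, which reads as a match on both strands, at -52, and CACCTG on the minus strand at -128 and -14. The first of these motifs is frequent, since 58.7% of 35116 promoters of this length hold it, against 20.6% for CACCTG, 11.5% for TATAAA and 7.71% for TGANTCA. Promoters of chromosome 8, where GRHL2 and ESRP1 lie, were left out of all these counts. RefSeq promoters of the other chromosomes were matched to 26 of the 51 members, with 38 promoters in all. Of these 38, 30 held the NF-kB core (78.9%) and 19 held CACCTG (50%), while 3 held TGANTCA, 3 TATAAA and 2 the ETS core CCGGAA, which 17.2% of all promoters hold. A match to these letters is a description of the sequence and not a binding site.

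Of the other factors, 3 were tested and 0 were called. EHF, an ETS factor of glandular epithelia related to ELF3, had 9738 and 10935 normalized counts in siCt and 10690 and 11617 in siAXL. The groups overlapped, and it did not pass the test (log2 fold change 0.11, SE 0.0747, limma adjusted p = 0.346). EHF was thus the most abundant factor of the set, with a siCt mean of 2357 normalized counts per kb against 127 for ELF3. The grainyhead-like factors GRHL1 and GRHL3, which activate junction genes, were lower in both siAXL libraries without passing the test. GRHL1 had 71.9 and 70.4 normalized counts in siCt and 53.4 and 52.1 in siAXL (log2 fold change -0.43, limma adjusted p = 0.138). GRHL3 had 35.5 and 23.8 in siCt and 16.5 and 12.8 in siAXL (log2 fold change -0.96, limma adjusted p = 0.0787, and 0.0377 without siCt 2). The splicing regulator ESRP2 had 503 and 469 normalized counts in siCt and 447 and 489 in siAXL, with overlapping groups (log2 fold change -0.06, limma adjusted p = 0.728). Its exons overlap those of NFATC3 on the other strand, and the strand setting of the counting is not given in the sources used here.

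Among the keratins of the set, calls were limited to chromosome 12. Of the 12 keratins, 8 were tested, and 5 were called lower and 0 higher, with a median log2 fold change of -0.30. That is 62.5% called, beside 18.7% of all tested genes called either way and 7.91% called lower. All 5 calls lay in the cluster of chromosome 12, where 6 keratins of the set were tested. Each of the 6 had both siAXL libraries below both siCt libraries, while 61.2% of all tested genes had groups apart in either direction. On chromosome 17, 0 of the 2 tested keratins of the set were called. The difference between the clusters was not tested. Since the set was listed with earlier results of these data known, the share of 62.5% is a description. Of the 5 keratins tested outside the set 0 were called.

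KRT80, a type II keratin that is found near desmosomes, had the fall with the smallest adjusted p. It had 11352 and 12917 normalized counts in siCt and 7425 and 8022 in siAXL, means of 12134 ± 1106 and 7724 ± 422 (SD, n = 2). The log2 fold change was -0.65 (SE 0.0769, limma adjusted p = 0.00348), and the groups lay far apart beside their spread. KRT7 and KRT8, the type II keratins of simple epithelia, fell to 81.2% and 80.8% of the siCt level. KRT7 had 16246 and 17387 normalized counts in siCt and 13345 and 13980 in siAXL (log2 fold change -0.30, SE 0.0604, limma adjusted p = 0.0179). KRT8 had 18728 and 20771 in siCt and 15671 and 16262 in siAXL (log2 fold change -0.31, SE 0.0669, limma adjusted p = 0.0232). These falls were small, and each group of KRT7 and KRT8 was nonetheless separate from the other. KRT18, the type I partner of KRT8 whose gene lies beside it on chromosome 12, had 11398 and 12117 normalized counts in siCt and 10076 and 10618 in siAXL, and did not pass the test (log2 fold change -0.18, limma adjusted p = 0.0735).

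KRT81 and KRT86 are type II keratins of hair, and the pair is similar enough in sequence that reads may be misassigned between them or left uncounted. KRT81 had 1338 and 1318 normalized counts in siCt and 881 and 1017 in siAXL (log2 fold change -0.49, SE 0.0855, limma adjusted p = 0.0115). KRT86 had 89.2 and 88.9 in siCt and 51.5 and 55.0 in siAXL (log2 fold change -0.73, SE 0.170, limma adjusted p = 0.0276). Reads of KRT81 outnumbered those of KRT86 15 and 14.8 times in siCt and 17.1 and 18.5 times in siAXL. Between KRT86 and KRT81, the pseudogene KRT87P was also called lower (log2 fold change -0.99, SE 0.268, limma adjusted p = 0.0441). KRT79, a type II keratin with a mean of 38.3 normalized counts, was the only tested keratin of this cluster above 0, at 0.08 (limma adjusted p = 0.837).

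The number of calls in the chromosome 12 cluster rested on single libraries, being 2 in place of 5 without siCt 2, 2 without siAXL 1 and 3 without siAXL 2, where a lone library is assumed to vary like the other group. KRT80 and KRT81 passed with each library left out in turn. KRT8 had an adjusted p of 0.0904 without siCt 2, 0.1 without siAXL 1 and 0.0549 without siAXL 2. KRT7 had 0.0565 without siCt 2 and 0.0953 without siAXL 1, and KRT86 had 0.0534, 0.114 and 0.0733 without siCt 2, siAXL 1 and siAXL 2. The directions of these 5 falls held in each case. KRT8 and KRT18 share 525 exonic bases on opposite strands, and both have processed pseudogenes elsewhere in the genome.

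KRT19, the most abundant member per kb, is the smallest type I keratin of simple epithelia. It had 31514 and 32106 normalized counts in siCt and 31956 and 30958 in siAXL, so its groups overlapped (log2 fold change -0.02, SE 0.0562, limma adjusted p = 0.870). KRT15, a type I keratin of basal cells, had 591 and 463 in siCt and 624 and 570 in siAXL, again with overlapping groups (log2 fold change 0.19, limma adjusted p = 0.347, and 0.0256 without siCt 1). The outermost tested keratins that GENCODE 29 places on chromosome 17 were KRT10 and KRT19. Between them lay also KRT34, KRT39, the keratin-associated gene KRTAP2-3 and TMEM99. With KRT10 these are 5 genes, of which 0 were called. The tested row of KRT222, a chromosome 17 gene whose row GENCODE 29 gives another name by its identifier and which is therefore not drawn in the plot of the clusters, was not called either (log2 fold change -0.14, limma adjusted p = 0.818). The adjusted p nearest the threshold among them was that of KRT39, at 0.0563, from a mean of 7.78 normalized counts. The log2 fold change of KRT39, -1.36 (SE 0.402), was a larger fall than that of any keratin called on chromosome 12. KRT10 (-0.10), KRT19 and KRT222 were also below 0, while KRT34 (0.38) and KRT15 were above it.

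The makeup of the summed keratin counts moved accordingly. These counts were not divided by exon length, which is 6.88 kb for KRT8 and 2.34 kb for KRT19, so the shares are of reads and not of transcripts. The summed normalized counts of the 12 keratins were 91261 and 97174 in siCt and 80036 and 81490 in siAXL. KRT19 made up 34.5% and 33.0% of that sum in siCt and 39.9% and 38% in siAXL, while the share of KRT80 was 12.4% and 13.3% in siCt and 9.28% and 9.84% in siAXL. Both shares had groups that did not overlap. Reads of KRT8 outnumbered those of its partner KRT18 1.64 and 1.71 times in siCt and 1.56 and 1.53 times in siAXL.

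**Figure D3:**
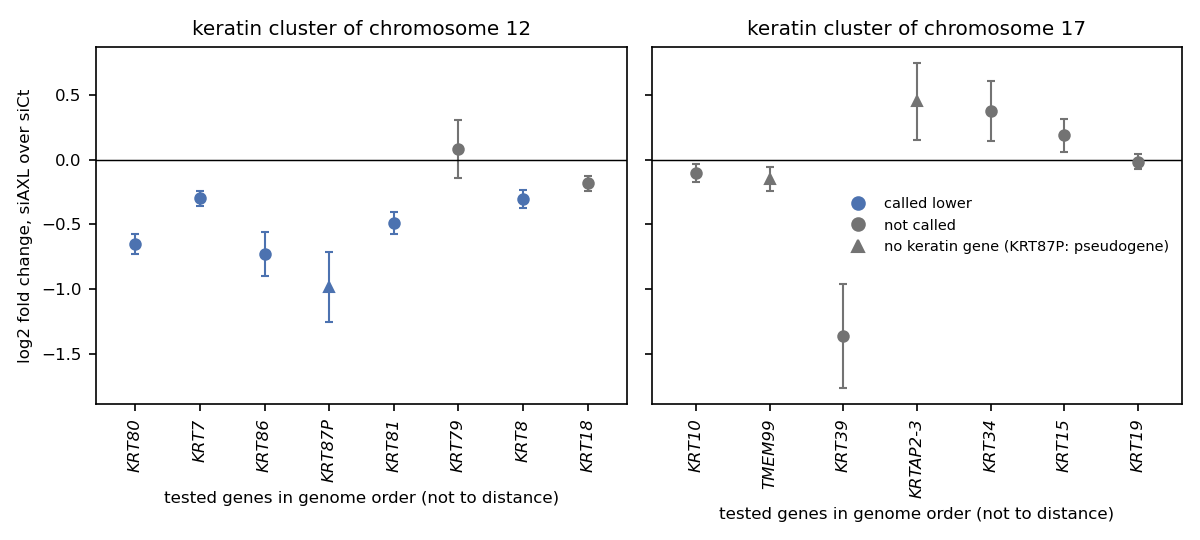
Log2 fold change (siAXL over siCt, bars of 1 standard error) of the tested genes in the keratin clusters of chromosome 12 and chromosome 17, in genome order but not to distance. Blue points passed the test as lower, grey points did not pass, and triangles are genes in the clusters that are no keratin genes, KRT87P being a pseudogene. On chromosome 12 the keratins other than KRT79 lie below 0, and on chromosome 17 the points lie on both sides of it.

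Junction genes lay on the other side of 0 for the most part. Of 22 junction members, 19 were tested, and 3 were called higher and 0 lower. That is 15.8% called, beside 18.7% of all tested genes called either way and 10.8% called higher. The median log2 fold change was 0.16, and 15 were above 0. In 15 of the 19 the groups did not overlap (78.9%, beside 61.2% of all tested genes). By share of calls the junction genes were thus near the background.

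DSC2, a desmosomal cadherin, had the junction value with the smallest adjusted p. It had 707 and 676 normalized counts in siCt and 1023 and 1013 in siAXL, means of 691 ± 21.6 and 1018 ± 6.81 (SD, n = 2), so that the siAXL level was 147% of siCt. The log2 fold change was 0.56 (SE 0.0726, limma adjusted p = 0.00447), and DSC2 was called with each library left out in turn. DSG2, the desmosomal partner of DSC2, had 9527 and 10683 in siCt and 11090 and 12262 in siAXL (log2 fold change 0.21, limma adjusted p = 0.105). DSP, the desmoplakin that ties desmosomes to keratin filaments, had 10634 and 11928 in siCt and 12899 and 14111 in siAXL (log2 fold change 0.26, limma adjusted p = 0.0540). With each library left out in turn, DSG2 lay between 0.126 and 0.292 and DSP between 0.178 and 0.343. Both stayed short of the threshold while their groups did not overlap. The plaque proteins JUP (log2 fold change 0.01), PKP2 (-0.07) and PKP3 (0.09) and the cornified envelope linkers PPL (0.25) and EVPL (0.02) did not pass the test, with adjusted p between 0.189 and 0.930. PPL alone among these was called when 1 library was left out (adjusted p = 0.00368 without siCt 2). CDH3, or P-cadherin, was near the limit of detection, with 6 and 3 reads in siCt and 11 and 20 in siAXL (log2 fold change 1.54, SE 0.469, limma adjusted p = 0.0625, and 0.0101 without siCt 1).

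At tight junctions, 10 of 11 members were tested and 2 were called higher. F11R, the junctional adhesion molecule JAM-A, had 1584 and 1738 normalized counts in siCt and 2118 and 2129 in siAXL (log2 fold change 0.36, SE 0.0682, limma adjusted p = 0.0152). CLDN3, a sealing claudin, had 38.4 and 43.3 in siCt and 67.0 and 66.8 in siAXL (log2 fold change 0.70, SE 0.192, limma adjusted p = 0.0448). Either gene had both siAXL libraries above both siCt libraries, and neither call held with each library left out in turn. F11R had an adjusted p of 0.0545 without siAXL 1 and 0.0560 without siAXL 2. CLDN3 had 0.101 without siCt 1, 0.168 without siAXL 1 and 0.154 without siAXL 2. CLDN3 rests on 40 and 40 reads in siCt and 69 and 68 in siAXL.

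Among the other claudins of the set, CLDN4, the most abundant of them, had 7970 and 8281 normalized counts in siCt and 8217 and 8697 in siAXL, with overlapping groups (log2 fold change 0.06, limma adjusted p = 0.536). CLDN7, whose exons overlap those of ELP5 on the other strand, had 2289 and 2136 in siCt and 2656 and 2460 in siAXL (log2 fold change 0.21, limma adjusted p = 0.0756, and 0.0287 without siCt 1). CLDN1 had 147 and 117 in siCt and 162 and 165 in siAXL (log2 fold change 0.32, limma adjusted p = 0.194). The 4 tested claudins of the set were thus above 0, and 1 of the 4 passed the test. Claudins outside the set lay on both sides of 0, and of these CLDN12, named here after its values were seen, was called lower, with 6011 and 6501 normalized counts in siCt and 5434 and 5310 in siAXL (log2 fold change -0.22, limma adjusted p = 0.0455). Occludin (OCLN) and the scaffold TJP1, or ZO-1, were also above 0, at 0.11 and 0.16, without passing. The cytoplasmic plaque proteins TJP3 (-0.32) and cingulin (CGN, -0.40) and the tricellular protein MARVELD2 (-0.28) were below 0, with both siAXL libraries below both siCt libraries and adjusted p of 0.258, 0.127 and 0.118. Without siCt 1, TJP3 had an adjusted p of 0.0433 and MARVELD2 of 0.0404.

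The 5 tested surface genes were each above 0 and 0 were called. EPCAM, the epithelial cell adhesion molecule, had 565 and 625 normalized counts in siCt and 711 and 771 in siAXL (log2 fold change 0.32, SE 0.0905, limma adjusted p = 0.0513). With each library left out in turn, the log2 fold change of EPCAM lay between 0.24 and 0.39. Its groups did not overlap, and it had the smallest adjusted p of any member that was not called. The membrane protease matriptase (ST14), its inhibitors SPINT1 and SPINT2 and the mucin MUC1 had log2 fold changes of 0.08, 0.07, 0.06 and 0.01, with adjusted p from 0.496 to 0.889. The groups of ST14 touched at 159 normalized counts, and those of SPINT1, SPINT2 and MUC1 overlapped.

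Genes of related function outside the set are given by the same counts, to be read beside the 18.7% of all tested genes that were called, 10.8% as higher and 7.91% as lower. CDH1, or E-cadherin, the adherens junction cadherin of epithelia, was low in this line, at 90.1 and 94.3 normalized counts in siCt, and lower in siAXL at 36.9 and 22.6 (log2 fold change -1.64, SE 0.261, limma adjusted p = 0.00847). Of 26 other adhesion and polarity genes tested, 6 were called higher and 3 lower (34.6%), the nectins PVRL1 (0.55) and PVRL3 (0.42) among the higher and the polarity protein PARD6B (-0.41) beside CDH1 among the lower. Of the 9 hemidesmosome genes, which anchor epithelia to the basement membrane, 4 were called higher and 0 lower (44.4%), among them the integrin subunit ITGB4 (0.70, limma adjusted p = 0.00205). The other 5 hemidesmosome genes were not called, and LAMA3 among them was below 0, at -0.17.

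Of the 5 other keratins tested 0 were called. Of 6 other intermediate filament genes, nestin (NES) rose by 0.87 and lamin B1 (LMNB1) fell by 0.31 on the log2 scale, and VIM, the mesenchymal filament gene, had 92547 and 86751 normalized counts in siCt and 99296 and 96112 in siAXL (log2 fold change 0.12, limma adjusted p = 0.248). Of 20 other epithelial genes, 2 were called higher and 4 lower (30.0%). MAL2, of apical transport, fell by 0.94, while MAPK13 and CD9 rose by 0.35 and 0.33. Of 21 tested genes known to be induced by NF-kB or IL-1, a list that LCN2 could also have joined, 0 were called higher and 9 lower (42.9%, median log2 fold change -0.30). CSF2 (-1.27, limma adjusted p = 0.000585) and CXCL3 (-1.58, limma adjusted p = 0.00219) led these.

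A word of 7 bases, CACATCA, which an earlier analysis of these data had found in the 3′ UTRs of genes that rose, was also looked for in the members. Over all tested genes, 35.1% of the 228 with 2 or more copies in the longest annotated 3′ UTR were called higher, 23.4% of the 1508 with 1 copy and 10.9% of the 11289 with 0 copies. The median log2 fold changes were 0.17, 0.07 and -0.01. Among 3′ UTRs of at least 3000 bases the share called higher was 29.6% with 2 or more copies and 11.7% with 0. These shares were seen in the data from which the word was picked, so they are a description.

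Of the 38 tested members 5 held the word and 33 did not. Over all tested genes with a 3′ UTR, 1736 held it and 11289 did not, so the members held it about as often. DSC2 and F11R held 2 copies each, and GRHL3, ESRP2 and TJP1 held 1. Of the 3 members called higher 2 thus carried it, and CLDN3 did not. Among all these genes called higher, 433 carried the word and 1235 did not. The sites of DSC2 and F11R are shown since they are the called carriers, as 29 bases of the GENCODE 29 transcript with the word in capitals and its first base counted from the start of the 3′ UTR.
DSC2 3′ UTR, base 3416 of 9175: acacatactacCACATCAaatcaggttct
DSC2 3′ UTR, base 3775 of 9175: tgcctgtaaaaCACATCAcacaatgcctg
F11R 3′ UTR, base 3084 of 3660: tggtcaattaaCACATCAccatttttgtg
F11R 3′ UTR, base 3399 of 3660: ctgcacccggcCACATCAcctcccatgtt

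The fold changes of the carriers ran from -0.96 for GRHL3 through -0.06 for ESRP2 and 0.16 for TJP1 to 0.36 for F11R and 0.56 for DSC2. The part of the word in the values of DSC2 and F11R was not tested.

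**Figure D4:**
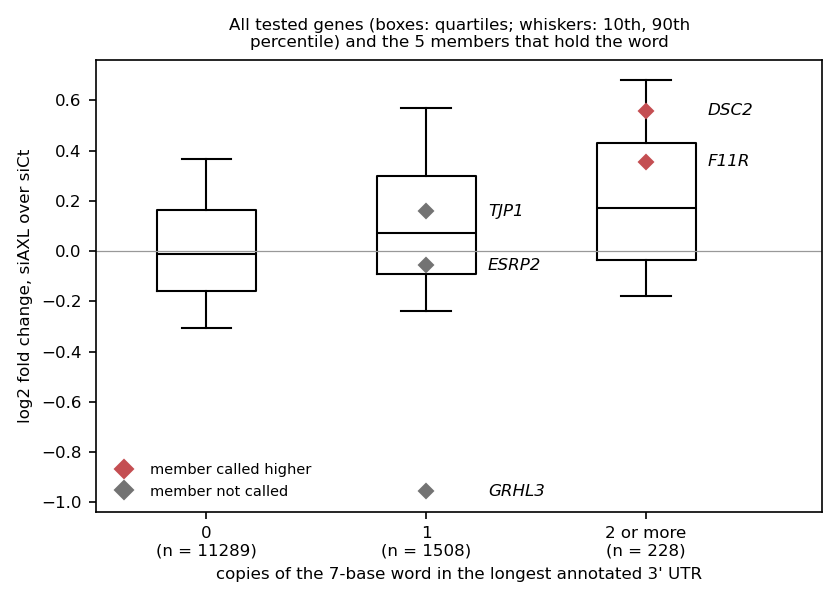
Log2 fold change (siAXL over siCt) of all tested genes by the number of copies of the 7-base word in the longest annotated 3′ UTR, as boxes of the quartiles with whiskers at the 10th and 90th percentile, and the 5 members that hold the word as diamonds. DSC2 and F11R, at 0.56 and 0.36, are the red diamonds in the class of 2 or more copies, whose median is 0.17.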

How the data were processed

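RNA was sequenced from MDA-MB-231 cells given a control siRNA or siRNAs against AXL, 2 libraries each, grouped by their labels. Per the submitters' processing notes, the tools were CASAVA 1.8, TopHat2 2.0.10, HTSeq 0.5.3 and DESeq2 1.4.5 with GRCh37. The annotation and the strand setting are not given in the sources used here. The authors deposited 1 table of normalized counts, a signal in which each gene's reads are scaled by the size factor that DESeq2 gave its library. The columns of the authors' own comparison (fold changes, standard errors, p-values) were not used.

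All deposited values (100% per library) came to whole reads within 0.05 reads once the scaling was undone, and these reads were used for the filter and the count tests. Genes that passed filterByExpr of edgeR (16064 of 63677) were tested with limma 3.58.1 in R 4.3.3 (lmFit, eBayes with trend) on log2(normalized count + 1), which shrinks the fold changes of genes with few reads, with no covariate. Called means a Benjamini-Hochberg adjusted p under 0.05 over all tested genes. edgeR 4.0.16 (quasi-likelihood, 3122 genes called) and DESeq2 1.42.0 on the recovered reads were alternatives, with other scalings, pseudocounts of 0.5 and 8, no filter, a replicate block, and each library left out. A correction for GC content and transcript length was added after the data were seen. Counts simulated with known fold changes were also fitted, and the limit set there was on the mean error of the fold change. The rate of false calls in these data was not checked by it. Exon lengths, 3′ UTRs and overlaps came from GENCODE 29, and promoters from RefSeq on GRCh38.p14. No gene coordinates on the authors' build are given.

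The members, the related lists and the motifs were chosen with earlier results of these data known. Each member is accounted for, and from a related list at most the 2 called genes with the smallest adjusted p in each direction are named, and some of these are not reported here. The limit of 3 reads for a count of 0 covers counting error only, while the standard errors come from limma and rest on the spread between libraries. The depth was 39574387 to 44585773 reads per library.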

Additional observations from a re-analysis of the deposited data

How the results depend on the processing

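Over 13 alternatives, 398 of 465 values of tested members kept their direction and side of the threshold, 21 lost a call, 32 gained one and 14 changed sign. DSC2 and KRT80 were called under each of the 13, and KRT81 under all but the one without the filter. With every gene of at least 1 read tested (27108 genes), 1097 genes and 2 members were called in place of 3006 and 8, and 1 keratin of chromosome 12. With each library left out, 1301 to 3900 genes were called, and 3 to 12 members, fewest without siAXL 1. Other settings called 7 to 10 members: DESeq2 lost KRT86 (adjusted p = 0.1), gave CLDN3, GRHL3 and CDH3 no adjusted p and gained DSP (adjusted p = 0.0218), and edgeR's test and TMM scaling gained EPCAM and DSP. The correction for GC content and length lost CLDN3 (adjusted p = 0.0608), gained EPCAM and DSP and brought the median of the members from 0.06 to 0.002.

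With the replicate number as a block, 7310 genes and 22 members (13 higher, 9 lower) were called, and the members gained included DSP, EPCAM, KRT18, EHF (adjusted p = 0.00596), GRHL3 (0.0115) and CDH3 (0.00953). Fitting both the group and the number to so few libraries leaves little to measure the spread of a gene. The p-values of this fit therefore rest mainly on limma's pooling of the spread over genes. The libraries share only a number, in 2 pairs. The deviations of same-numbered libraries had a Pearson correlation of 0.27 over 16064 genes, and the mitochondrial share went with the number.

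The changes of sign were in 7 members that were not called in either setting. Under scaling by library size JUP was at -0.021, EVPL at -0.008 and MUC1 at -0.016. After the correction for GC content and length JUP was at -0.062, PKP3 at -0.003, EVPL at -0.096 and MUC1 at -0.119. With each library left out, ESRP2 ran from -0.121 to 0.010 (without siAXL 1), KRT19 from -0.039 to 0.007 (without siAXL 2), JUP from -0.013 (without siAXL 2) to 0.030, EVPL from -0.113 (without siCt 2, and -0.046 without siAXL 1) to 0.155, SPINT1 from -0.001 (without siAXL 2) to 0.139 and MUC1 from -0.003 (without siAXL 1) to 0.030. The causes were not tested. The lowest tested member, CDH3, rests on 3 to 20 reads per library.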
